A study of Caenorhabditis elegans with 2 samples.

Results

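The regions described here come from a list of candidate regions for the zinc finger protein CCCH-3 and lie near small nucleolar RNA (snoRNA) genes of Caenorhabditis elegans. A region was taken from the list of 30000 candidates called on the reads of both replicates together when its summit lay within 500 bp of an annotated snoRNA gene and not within 500 bp of a tRNA gene. The rule uses positions only, and 203 of the 30000 candidates met it. The list of 30000 is labelled as peaks and background, so a candidate is not in itself a binding site. In it 229 regions had a false discovery rate (q-value) at or under 0.05, and 30 of these were among the 203. Another 4 regions lay near a snoRNA gene and were left out because a tRNA gene also lay within 500 bp. The study was chromatin immunoprecipitation with sequencing on whole young adults of mixed sex, 70 hours old, from cultures synchronised by bleaching and starvation at the first larval stage. The strain, OP628, carries the integrated fosmid transgene wgIs628, in which ccch-3 is joined to a TY1 EGFP 3xFLAG tag, together with unc-119(+), in an unc-119(tm4063) background. Chromatin was sonicated to 200 to 800 bp and precipitated with an antibody against GFP. The labels give 1 group of 2 biological replicates, so no condition was compared, and no worms without the tag were analysed here. Every region was scored against a control alignment whose nature is not given in the sources used here.

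snoRNAs guide the chemical modification of ribosomal RNA in the nucleolus. Box C/D snoRNAs direct 2′-O-methylation of ribose, and box H/ACA snoRNAs direct the conversion of uridine to pseudouridine. In C. elegans many snoRNA genes lie inside introns of protein-coding genes. Many of these genes, intronic ones included, have promoters of their own, and some are transcribed by RNA polymerase III. The classical promoter of that polymerase is the one inside tRNA genes, where TFIIIC binds an A box near the start and a B box further in. Transcription by RNA polymerase III ends at a run of T.

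The stretches in front of 8 snoRNA genes are shown because summits with high signal lie in or beside them. Each runs from 100 bp upstream of the annotated snoRNA start to base 10 of the gene, 5′ to 3′ on the strand of the snoRNA, in assembly ce11 (WBcel235), read from the RefSeq genome of that assembly. Capitals mark the letters TGGCNNAG, as in the A box of many tRNA genes, and GTTCNANNC, the B box letters, where they start upstream of the gene. They belong to the 11 reproducible regions with the highest signal, of which F59C6.15 and T19B4.8 are not printed here and C06A1.9 is left out because its region lies 486 bp away.
ZK994.7 (chrV:8500479-8500588, plus strand): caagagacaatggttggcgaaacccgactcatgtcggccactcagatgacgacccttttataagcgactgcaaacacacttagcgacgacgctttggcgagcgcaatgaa
C51F7.4 (chrV:12303499-12303608, plus strand): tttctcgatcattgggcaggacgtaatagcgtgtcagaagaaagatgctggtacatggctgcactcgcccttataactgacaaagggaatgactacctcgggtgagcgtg
T03F7.8 (chrV:11314158-11314267, plus strand): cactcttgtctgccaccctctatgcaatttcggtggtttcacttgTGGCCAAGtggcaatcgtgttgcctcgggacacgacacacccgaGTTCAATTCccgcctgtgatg
T04A8.17 (chrIII:4689762-4689871, minus strand): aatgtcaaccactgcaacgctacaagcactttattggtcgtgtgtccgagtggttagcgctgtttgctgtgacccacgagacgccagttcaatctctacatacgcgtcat
W03C9.9 (chrII:11960798-11960907, plus strand): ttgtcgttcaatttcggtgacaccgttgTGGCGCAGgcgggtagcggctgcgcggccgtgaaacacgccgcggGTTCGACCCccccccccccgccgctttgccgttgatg
Y38F2AR.14 (chrIV:2408626-2408735, minus strand): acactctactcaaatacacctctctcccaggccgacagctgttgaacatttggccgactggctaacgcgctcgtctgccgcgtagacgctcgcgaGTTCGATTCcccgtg
C51F7.3 (chrV:12303608-12303717, plus strand): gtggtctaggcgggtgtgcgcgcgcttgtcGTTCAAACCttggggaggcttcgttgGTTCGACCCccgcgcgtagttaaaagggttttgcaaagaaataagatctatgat
F32E10.10 (chrIV:7574022-7574131, plus strand): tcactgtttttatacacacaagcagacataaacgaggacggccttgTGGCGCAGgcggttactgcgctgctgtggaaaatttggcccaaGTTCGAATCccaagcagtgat

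The A box letters stood ahead of the B box letters in T03F7.8, W03C9.9 and F32E10.10. Y38F2AR.14 had the B box letters once and C51F7.3 had them at more than 1 place, without the A box letters. Those in front of C51F7.3 lie inside the annotated neighbouring gene C51F7.4 (12303599 to 12303693), whose body fills most of that stretch. ZK994.7, C51F7.4 and T04A8.17 had neither exact match in the stretch in front of the gene. A match is a run of letters and not a measured binding site, and a stretch without a match says only that those letters are not in it.

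Of the 203 regions, 28 (13.8%, 95% Wilson interval 9.72 to 19.2%) were in the authors' list of 218 peaks that passed the irreproducible discovery rate, a comparison of ranks between the replicates. These 28 are called reproducible below. Among all 30000 candidates the share was 0.727%. The members made up 12.8% of the 218 reproducible peaks. All intervals here cover counting error only, and neighbouring regions are not independent, so no test was run on these shares. The signal value of a region is the score of the authors' peak caller on a scale that is not stated, and it serves here only to describe and rank regions within a list. The list of 218 is close to a cut on the pooled score: its lowest peak had 94.4, as had the member at rank 217. The word reproducible thus does not mean that both replicates ranked a region high. Shares and ranks here both rest on the pooled score, so they are not separate evidence. By that score the members had a median rank of 7750 (quartiles 816 and 18764) and a median signal of 45.2, against a median rank of 15000 and a median signal of 38.1 over all candidates. The members ran from rank 5 to the lowest scores of the list, with signals of 29.4 to 235, against 29.4 to 357 over all candidates.

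Regions near other small RNA genes were also often reproducible. Within 500 bp of a tRNA gene on the X chromosome, 33 of 219 candidates (15.1%, 10.9 to 20.4%) were reproducible, and near autosomal tRNA genes 13 of 251 (5.18%, 3.05 to 8.66%). Near snRNA genes, which encode the RNAs of the spliceosome, 7 of 66 (10.6%, 5.23 to 20.3%) were reproducible. The interval for the regions near snoRNA genes overlaps those near X-linked tRNA and snRNA genes and lies above that near autosomal tRNA genes. Only 1 of the 203 members was also near an snRNA gene, and it was not reproducible.

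**Figure D1:**
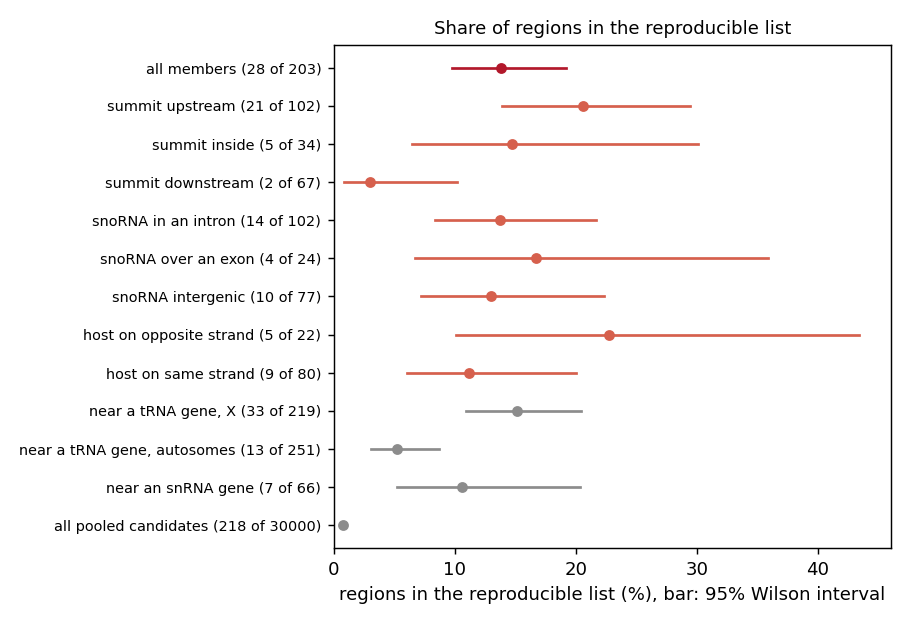
Share of candidate regions in the reproducible list, in percent, for all regions near snoRNA genes (top), for subsets of them and for regions near tRNA and snRNA genes and all 30000 candidates (bottom); points are shares and bars are 95% Wilson intervals. Regions with the summit downstream of the snoRNA gene sit at 2.99%, against 20.6% for those upstream, and all candidates sit at 0.727%.

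The annotation holds 346 snoRNA genes. A member region lay within 500 bp of 174 of them (50.3%), and a reproducible member lay within 500 bp of 28 (8.09%, 5.66 to 11.4%). Candidates are also frequent near other genes. From 1000 bp upstream to 200 bp downstream of a transcript start, 38.5% of 19985 protein-coding genes had a candidate. A reproducible one lay there at 0.931%. These windows differ from that used for snoRNA genes, so the shares are context only. Each of the 28 reproducible regions had a different nearest snoRNA gene. Reproducible regions were thus near a minority of the family in these lists.

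The share of reproducible regions varied with the position of the summit along the snoRNA gene. It was 20.6% (21 of 102, 13.9 to 29.4%) where the summit lay upstream of the gene and 14.7% (5 of 34, 6.45 to 30.1%) where it lay inside. Downstream it was 2.99% (2 of 67, 0.822 to 10.2%). The intervals upstream and downstream do not overlap when regions are matched exactly to the reproducible list. Downstream regions at T19B4.8, W03C9.9, H09I01.2, T02E1.9, F55A11.10 and D1046.6 overlap a reproducible region at the same gene yet count as not reproducible. So do upstream regions at ZK484.9 and F39B2.14. With any overlap of at least 1 bp counted, 36 members instead of 28 were reproducible. Shares by side are not given for that count, so the separation holds for the exact match only. The median rank was 4836 upstream, 3972 inside and 14136 downstream, so downstream regions also had the lower scores.

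Most reproducible summits lay just in front of the start of the snoRNA. Their median position was -30 bp from the start (quartiles -60 and 0.75 bp), against 18 bp (quartiles -136 and 232 bp) for the other members. Within 100 bp of the start on either side lay 23 of 28 reproducible summits (82.1%, 64.4 to 92.1%) and 56 of 175 other summits (32%, 25.5 to 39.2%). In the window from -100 to -1 bp, 17 of 51 members (33.3%, 22 to 47%) were reproducible, with a median rank of 775. From -500 to -201 bp it was 1 of 36. More than 200 bp past the start it was 0 of 50, which allows a share of up to 6%. The region among these 50 at F55A11.10 overlaps a reproducible region. Regions have a set width of mostly 400 bp with the summit at the midpoint, and fragments were 200 to 800 bp long, so distances shorter than a fragment are not resolved for a single region.

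**Figure D2:**
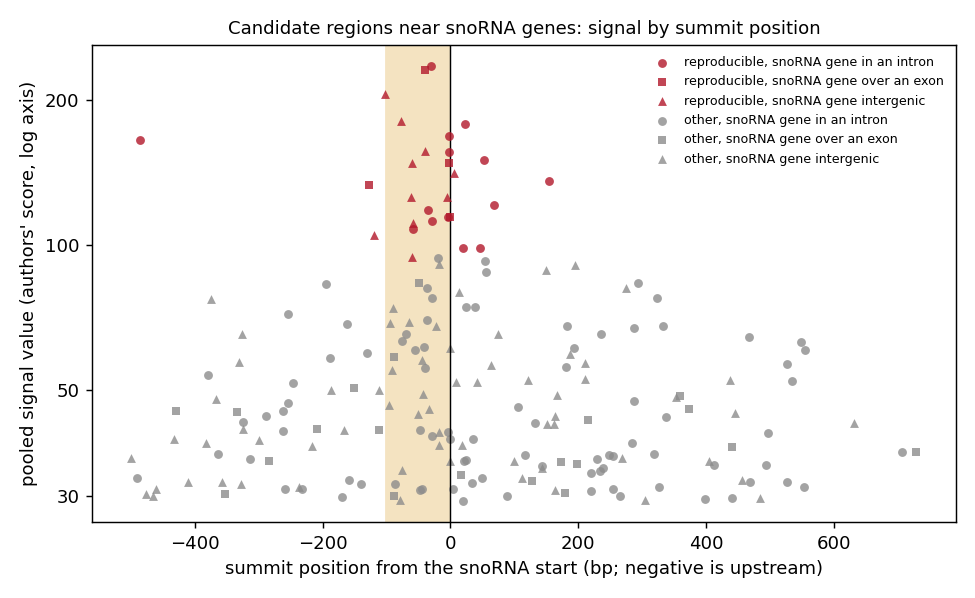
Pooled signal value (authors' score, log axis) of all 203 regions against the position of the summit from the snoRNA start in bp, negative upstream; red points are reproducible, grey points are not, and the shape gives the place of the snoRNA gene. The shaded 100 bp in front of the start hold 17 of the 28 reproducible regions, and no reproducible region lies more than 200 bp past the start.

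The distance limit itself shaped the set at its edge. Between 251 and 500 bp from the gene 1 of 54 regions (1.85%) was reproducible, between 101 and 250 bp 3 of 42 (7.14%), and between 1 and 100 bp 19 of 73 (26%, 17.3 to 37.1%). The last regions inside the limit were those at Y43B11AR.7 (490 bp, signal 32.7) and W05G11.7 (499 bp, signal 36.1). The first outside were those at D2023.18 (507 bp, signal 45.7) and C32F10.9 (511 bp, signal 38.4). None of these 4 was reproducible.

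Shares were close whether the snoRNA gene lay inside a coding gene or between genes. Of the 346 genes, 178 lie inside an intron of a protein-coding gene, 124 are intergenic and 44 overlap a coding exon, and this last class was counted apart. The share of reproducible regions was 13.7% (14 of 102, 8.36 to 21.7%) for intronic genes, 13% (10 of 77, 7.21 to 22.3%) for intergenic genes and 16.7% (4 of 24, 6.68 to 35.9%) for genes over an exon. These intervals overlap throughout and leave room for differences in either direction. The sign of the small gap between intronic and intergenic genes, 0.738 percentage points, changed under several alternatives given in the closing section. Of upstream summits, 8 of 44 were reproducible for intronic genes, 9 of 44 for intergenic genes and 4 of 14 for genes over an exon. Of downstream summits these were 2 of 39, 0 of 20 and 0 of 8, and of summits inside the gene 4 of 19, 1 of 13 and 0 of 2.

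Intronic snoRNA genes can run with or against their host. A snoRNA on the strand of its host can be cut from the host's intron, while a snoRNA on the opposite strand cannot. Where the host lay on the opposite strand, 5 of 22 members (22.7%, 10.1 to 43.4%) were reproducible. With the host on the same strand it was 9 of 80 (11.2%, 6.03 to 20%). The intervals overlap. The median rank was 2186 with an opposite host and 8776 with a host on the same strand. Ribosomal protein genes are frequent hosts of snoRNAs in animals, and 10 members lay at snoRNAs in their introns. None of the 10 was reproducible, which allows a share of up to 30%, against 14 of 92 (15.2%, 9.29 to 23.9%) in introns of other genes. The highest of the 10 was at F54E7.10 in rps-12, with signal 83 and rank 329. Its summit lay 195 bp from the snoRNA gene and 115 bp from a coding start.

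The region with the highest signal lay in front of ZK994.7, on chromosome V at 8500348 to 8500747, with a pooled signal of 235 and rank 5 of 30000. It was rank 19 in replicate 1 (signal 115) and rank 12 in replicate 2 (signal 116). ZK994.7 sits on the same strand in an intron of pxn-1, which encodes a peroxidasin, an enzyme of the extracellular matrix, and the summit is 31 bp upstream of the snoRNA start. The nearest start of a coding gene is 5659 bp away, so the summit is far from any promoter of a coding gene.

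The next lay at C51F7.4, over an exon of frm-7, which encodes a FERM domain protein, on chromosome V at 12303360 to 12303759. Its pooled signal was 231 (rank 6), with ranks 16 (signal 122) and 11 (signal 117) in replicates 1 and 2. A neighbour 200 bp on, at 12303560 to 12303959, had its summit inside C51F7.3, in an intron of frm-7 on the same strand, with a pooled signal of 150 (rank 52). This neighbour overlaps the first region, and in replicate 2 both were matched to the same listed region, of rank 11. In replicate 1 the neighbour was matched to a region of its own at rank 3685 (signal 29.8). The frm-7 pair is thus not 2 independent measurements.

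F59C6.15 and T19B4.8 are intergenic genes on chromosome I, and both had the summit upstream. At F59C6.15 (10517053 to 10517452) the pooled signal was 206 (rank 13), with rank 42 (signal 80.4) in replicate 1 and rank 7 (signal 125) in replicate 2. At T19B4.8 (5706769 to 5707168) it was 181 (rank 23), with ranks 38 (signal 83.1) and 27 (signal 102). Both were among the 218 highest regions of each replicate.

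T03F7.8 and T04A8.17 lie in introns of hosts on the opposite strand. The region at T03F7.8, in cutl-18, a cuticlin-like gene, spans 11314081 to 11314480 on chromosome V, with the summit 23 bp inside the snoRNA. Its pooled signal was 178 (rank 24), with ranks 37 (signal 83.2) and 33 (signal 98.3) in replicates 1 and 2. The host of T04A8.17 is ppat-1, which encodes amidophosphoribosyltransferase, the enzyme of the committed step of purine synthesis. That region (chromosome III, 4689573 to 4689972) had a pooled signal of 168 (rank 36) and ranks 54 (signal 74.6) and 38 (signal 93.2). The summit lay 2 bp upstream of the snoRNA start and 493 bp from a coding start.

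The region assigned to C06A1.9 is the exception in position. It spans 10563350 to 10563749 on chromosome II, with a pooled signal of 165 (rank 38) and ranks 70 (signal 69.9) and 45 (signal 90). The snoRNA lies on the same strand in an intron of cdc-48.1, which encodes an AAA ATPase that extracts ubiquitinated proteins. The summit is 486 bp upstream of the snoRNA but only 143 bp from the start of a coding gene, and no other reproducible region was more than 250 bp from its snoRNA gene.

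Among the rest of the 12 highest, W03C9.9 (chromosome II, 11960658 to 11961057) and F32E10.10 (chromosome IV, 7573862 to 7574261) are intergenic with the summit upstream. W03C9.9 had a pooled signal of 157 (rank 45) and ranks 34 (signal 84.1) and 102 (signal 70.4) in replicates 1 and 2. F32E10.10 had a pooled signal of 148 (rank 58) and ranks 137 (signal 58.4) and 52 (signal 86.7). Y38F2AR.14, in an intron of Y38F2AR.12 (a 5-oxoprolinase) on the same strand, spans 2408437 to 2408836 on chromosome IV. Its pooled signal was 156 (rank 47), with ranks 87 (signal 65.8) and 40 (signal 91.9), and the summit lay 2 bp upstream. T02E1.9 overlaps an exon of spe-12, a gene of sperm activation, and its region covers 8224272 to 8224671 on chromosome I. There the pooled signal was 148 (rank 59), with ranks 46 (signal 78.5) and 116 (signal 67.8).

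The remaining 16 reproducible regions had pooled signals of 94.4 to 141. Those at intergenic genes had the summit upstream of ZK265.10, Y53F4B.48, F30H5.4, Y53F4B.47 and H09I01.2, and inside T06C12.16. On the same strand as the host and with the summit upstream were C27H6.5 in unc-41 (a stonin that sorts synaptic vesicle proteins), F38E11.14 in cng-3 (a cyclic nucleotide-gated channel), D1046.6 in cfim-2 (a subunit of an RNA cleavage factor) and W08G11.6 in W08G11.3. F55A11.10 lay on the strand of its host F55A11.6 with the summit inside. On the strand opposite to the host lay C04G6.12 in mpk-2 (a MAP kinase), with the summit inside, and B0334.12 in twk-5 (a potassium channel) and ZK484.9 in haf-9 (an ABC transporter), both with the summit downstream. These are the only 2 downstream summits among the 28, at 154 and 69 bp from the snoRNA start. F39B2.14 and T27A3.9 overlap exons of tmem-107 (a protein of the ciliary transition zone) and T27A3.8, with the summit upstream.

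Listed regions of both replicates overlapped all 28 reproducible regions. In replicate 1, 23 of the 28 overlapped a region among the 218 highest, in replicate 2 it was 21, and in both it was 16. None was outside the 218 highest of both lists. The 28 stand at the top of the pooled list, which was scored on the reads of both replicates, so these counts describe them and nothing is read from them. Of all 203 members, 30 overlapped a region among the 218 highest of replicate 1 and 24 in replicate 2, where the 218 are 0.727% of each list. The median rank of the 28 was 97.5 in replicate 1 (16 to 3685) and 91 in replicate 2 (7 to 1571). Some regions ranked higher in replicate 1, such as F38E11.14 (ranks 59 and 1571 in replicates 1 and 2) and ZK265.10 (ranks 36 and 840). Others ranked higher in replicate 2, such as W08G11.6 (ranks 3297 and 105) and H09I01.2 (ranks 3162 and 213).

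Across the 136 members overlapped in both replicates, Spearman's rho between the signals was 0.562. It was 0.273 over the 28 reproducible members and 0.301 over the other 108. These values describe regions that share 2 libraries and a control, and some regions share a listed region, so no p is given. Of the 203 members, 54 overlap another member (10 of them reproducible), and 166 and 164 were overlapped by a listed region in replicates 1 and 2.

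**Figure D3:**
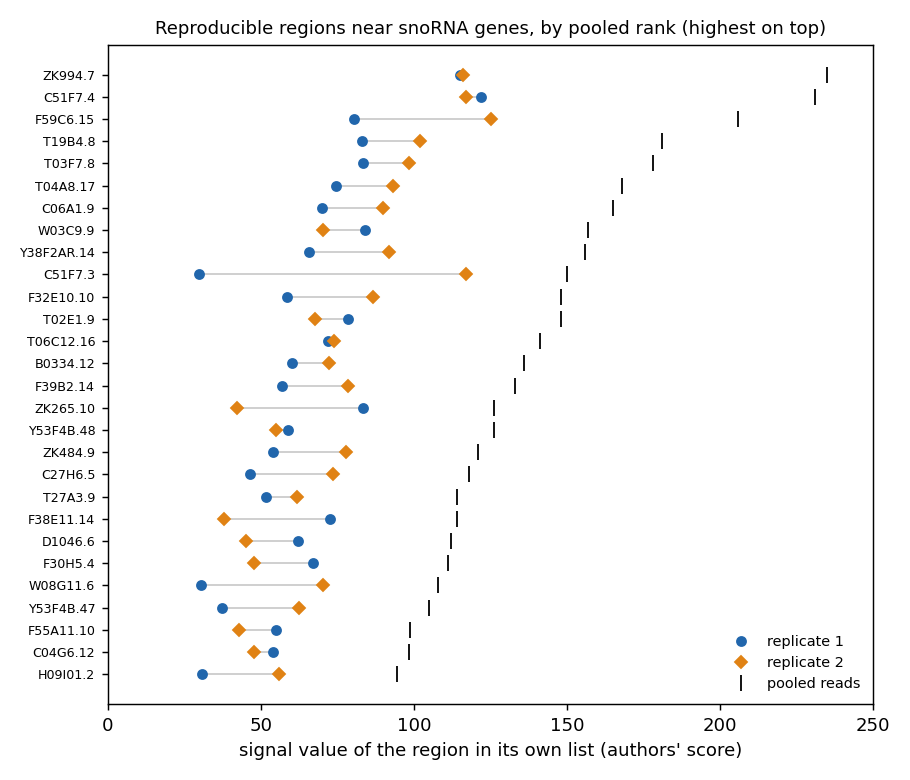
Signal values of the 28 reproducible regions, named by the nearest snoRNA gene and ordered by pooled rank; circles are replicate 1, diamonds replicate 2 and ticks the pooled reads, each on the authors' score of its own list. At C51F7.3 replicate 1 gives 29.8 and replicate 2 gives 117, while at ZK994.7 the replicates give 115 and 116.

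Just under the reproducible list stood M106.6 in an intron of mix-1, a condensin gene, with a pooled signal of 93.8 (rank 221) and ranks 98 and 822 in replicates 1 and 2. C27H5.9, in an intron of pdl-1 on the opposite strand, followed at 92.7 (rank 226). The next were C53B7.8 on the X chromosome at 91.3 (rank 236), Y67A10A.14 on chromosome IV at 90.7 (rank 242) and W06H8.17 on chromosome V at 88.7 (rank 259). The lowest reproducible region, H09I01.2, had 94.4 (rank 217). The step between the lists therefore falls in a continuous run of signals. The caller's q-value, the false discovery rate, was at or under 0.05 for 30 members of 229 such regions in the pooled list, namely the 28 reproducible ones, M106.6 (0.034) and C27H5.9 (0.0466).

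By chromosome, 8 of 34 members on V (23.5%, 12.4 to 40%), 7 of 45 on I (15.6%), 6 of 43 on II (14%), 5 of 41 on IV (12.2%) and 2 of 29 on III (6.9%) were reproducible. On X it was 0 of 11, which allows a share of up to 27.3%. The intervals of all 6 chromosomes overlap. With 11 members, the X count is too small to set snoRNA regions against the X-linked tRNA regions, where 33 of 219 were reproducible.

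A start of a protein-coding gene lay within 500 bp of 9 of the 28 summits, at T04A8.17, C06A1.9, B0334.12, F39B2.14, Y53F4B.48, F38E11.14, D1046.6, Y53F4B.47 and F55A11.10. Among all 218 reproducible peaks the share with a coding start this close was 51.4%, and among all candidates 25.6%. Of the 28 summits, 25 lay nearer to the snoRNA start than to any coding start, as did 176 of all 203. Members with a coding start within 500 bp were reproducible in 16.7% (9 of 54, 9.02 to 28.7%) and those without one in 12.8% (19 of 149, 8.32 to 19.1%).

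The reproducible regions were rich in G and C. Within 50 bp of the summit the median GC content was 51.5% (quartiles 49.5 and 55.7%) in reproducible members and 38.6% (quartiles 32.7 and 48.5%) in the other members. It was 44.6% in reproducible peaks away from snoRNA genes and 33.7% over all candidates. The part of base composition in the signal was not tested.

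The B box letters, GTTCNANNC on either strand within 100 bp of the summit, were present in 14 of 28 reproducible members (50%, 32.6 to 67.4%) and 19 of 175 other members (10.9%, 7.06 to 16.3%). Over all candidates the share was 7.94%. Reproducible peaks near tRNA genes, which carry a B box inside the gene, had them in 41 of 46 (89.1%, 77 to 95.3%), and reproducible peaks near neither kind of gene in 5 of 144 (3.47%, 1.49 to 7.87%). The snoRNA regions thus stood between these groups, and their interval overlaps neither.

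The A box letters, TGGCNNAG on either strand in the same window, were found in 11 of 28 reproducible members (39.3%, 23.6 to 57.6%) and 18 of 175 other members (10.3%, 6.61 to 15.7%), against 5.27% of all candidates. These letters were chosen after the sequences had been seen. They were not particular to snoRNA regions, being present in 39 of 144 reproducible peaks near neither kind of gene (27.1%, 20.5 to 34.9%) and 10 of 46 near tRNA genes (21.7%). They are also a narrow form of the A box, since only 108 of 634 tRNA genes (17%) hold them inside the gene, against 587 (92.6%) for the B box letters.

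Other letters gave a mixed picture. TATAAA was present in 11 of 28 reproducible members (39.3%, 23.6 to 57.6%) and 38 of 175 other members (21.7%), against 24.2% of all candidates. TGTCGGCC, also chosen after the sequences were seen, was in 3 of 28 reproducible members (10.7%, 3.71 to 27.2%) and 4 of 175 others (2.29%), against 0.32% of all candidates. Shares were close in the 100 bp in front of the snoRNA gene, on its strand. There TGTCGGCC was at 7.14% of the 28 genes nearest to a reproducible region, 5.76% of 139 nearest to another member and 4.47% of 179 nearest to none. For TATAAA these shares were 7.14%, 7.19% and 5.59%. Of the 6-mers picked earlier for being frequent in reproducible peaks of these lists, ACACGC was in 8 of 28 reproducible members (28.6%, 15.3 to 47.1%) and 9 of 175 others (5.14%), against 3.37% of all candidates. GGCCGA and CGGCCA were in 5 of 28 reproducible members each (17.9%, 7.88 to 35.6%), and in 9 (5.14%) and 7 (4%) of 175 others, against 3.09% and 3.28% of all candidates. GTACAC and GGCCTA were in 2 of 28 reproducible members each (7.14%, 1.98 to 22.6%), and in 14 (8%) and 9 (5.14%) of 175 others, against 5.35% and 3.17% of all candidates. In the 144 reproducible peaks near neither kind of gene the 5 ranged from 20.1 to 21.5%. The intervals of the reproducible members hold or overlap those shares for all 5. All 5 were searched on both strands within 100 bp of the summit. Every TGTCGGCC holds GGCCGA on the other strand and, where an A follows, CGGCCA as well, and the A box letters can hold GGCCTA.

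Orientation could be read from the snoRNA gene itself. In the 100 bp in front of the gene, on its own strand, the A box letters followed by the B box letters stood at 6 of the 28 genes nearest to a reproducible region (21.4%, 10.2 to 39.5%). The same order was found at 5 of 139 genes nearest to another member (3.6%, 1.55 to 8.14%) and at 3 of 179 genes nearest to none (1.68%, 0.572 to 4.81%). In the same window of 19985 protein-coding genes it was found at 1 gene (0.005%). Since the A box letters were chosen after these sequences were seen, the shares of the pair only describe these genes. The B box letters alone were in front of 12 of 28 genes (42.9%, 26.5 to 60.9%), 17 of 139 (12.2%) and 9 of 179 (5.03%), against 1.57% of coding genes. The 12 include C51F7.3, where the letters lie inside the neighbouring gene C51F7.4.

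The 14 snoRNA genes with both boxes in order formed a compact group. From the start of the A box to the start of the B box was 43 to 52 bp, with a median of 44, and the B box started 27 to 5 bp in front of the annotated gene. The group held 8 intronic and 6 intergenic genes and none over an exon. An annotated pseudogene overlaps the 100 bp in front of T08B2.13 and Y59E1B.14, so the letters there may belong to it. A member was nearest to 11 of the 14, and a reproducible member to 6 (42.9%, 21.4 to 67.4%), against 22 of the 332 other snoRNA genes (6.63%, 4.42 to 9.83%). The group is defined by letters chosen on these same sequences, so this contrast is a description and no independent support. The 6 are T19B4.8, T03F7.8, W03C9.9, F32E10.10, F55A11.10 and C04G6.12.

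The other 8 genes of the group show the range below the reproducible list. The regions at T08B2.13 in fars-1, a tRNA synthetase gene (rank 360), T10B9.11 (rank 386), T24H7.6 (rank 532) and ZK546.18 in mdt-4 (rank 1708) were in the upper part of the 30000. In a replicate list on its own, T10B9.11 was rank 190 in replicate 2 and T24H7.6 rank 195 in replicate 1, both among the 218 highest there. R166.7 in mnk-1 (a protein kinase) was near the bottom at rank 24505. Its summit lay 339 bp downstream of the gene, away from the boxes in front of it. Y39G10AR.24, Y43F8C.22 and Y59E1B.14 had no candidate within 500 bp. Of the 28 genes nearest to a reproducible region, 22 lacked the pair, and 8 of the 14 genes with the pair were not nearest to a reproducible region.

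**Figure D4:**
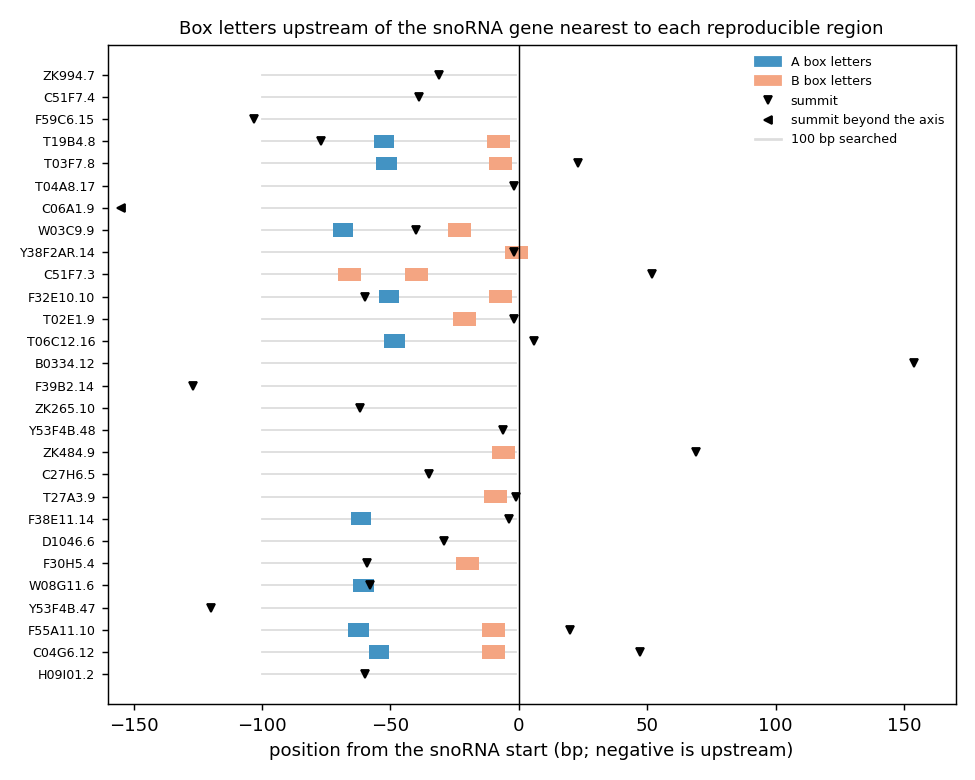
Position of the A box letters (blue) and B box letters (orange) in the 100 bp upstream of the snoRNA gene nearest to each of the 28 reproducible regions, ordered by pooled rank, with the summit as a triangle; the axis is in bp from the snoRNA start. In the 6 genes with both boxes the B box starts 27 to 11 bp in front of the gene, and 13 of the 28 genes show no box.

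A run of at least 4 T within 20 bp after the annotated 3′ end was present at 21 of the 28 genes nearest to a reproducible region (75%, 56.6 to 87.3%). It was present at 60 of 139 genes nearest to another member (43.2%, 35.2 to 51.5%) and 64 of 179 genes nearest to none (35.8%, 29.1 to 43%). The same run followed 614 of 634 tRNA genes (96.8%) and 40.3% of coding genes. Of the 14 genes with both boxes, 13 had it. Counted over regions, members at a snoRNA with the run were reproducible in 19.8% (21 of 106, 13.3 to 28.4%) and members at a snoRNA without it in 7.22% (7 of 97, 3.54 to 14.2%).

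The snoRNA genes themselves also differed in length and in their boxes. The gene nearest to a reproducible region had a median length of 75.5 bp, against 127 bp for the other members. Box C (TGATGA) within the first 20 bases was found in 6 of the 28 genes (21.4%, 10.2 to 39.5%), against 7 of 139 genes nearest to another member (5.04%) and 7 of 179 nearest to none (3.91%). Box D (CTGA) within the last 20 bases was found in 12 of 28 (42.9%, 26.5 to 60.9%), 35 of 139 (25.2%) and 34 of 179 (19%). ACA within the last 10 bases, where box H/ACA snoRNAs carry it, was found in 7 of 28 (25%, 12.7 to 43.4%), 44 of 139 and 51 of 179, against 29.5% of all snoRNA genes (24.9 to 34.5%). Short letters such as CTGA and ACA arise often in any sequence, so these counts do not sort the genes into families.

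Both box C and box D were found in 4 of the 28 genes, and their sequences are shown in full because they carry the boxes that define the C/D family. Each is 5′ to 3′ on the strand of the gene, with coordinates in ce11, from the same RefSeq genome, and capitals mark box C near the 5′ end and box D near the 3′ end.
W03C9.9 gene (chrII:11960898-11960959, plus strand): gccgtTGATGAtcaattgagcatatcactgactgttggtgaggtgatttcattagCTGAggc
C51F7.3 gene (chrV:12303708-12303783, plus strand): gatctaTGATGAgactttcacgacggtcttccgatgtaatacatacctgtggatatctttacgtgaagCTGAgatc
F30H5.4 gene (chrIII:502804-502889, plus strand): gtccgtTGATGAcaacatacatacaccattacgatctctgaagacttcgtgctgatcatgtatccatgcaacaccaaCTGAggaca
F55A11.10 gene (chrV:11782992-11783082, plus strand): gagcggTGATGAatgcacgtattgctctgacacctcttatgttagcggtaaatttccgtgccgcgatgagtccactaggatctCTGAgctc

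W03C9.9 and F55A11.10 also had the A and B box letters in front of the gene, while C51F7.3 and F30H5.4 had the B box letters alone. Those in front of C51F7.3 lie inside C51F7.4. Their regions had pooled signals of 157 at W03C9.9, 150 at C51F7.3, 111 at F30H5.4 and 98.7 at F55A11.10, so none was among the 7 highest of the 28.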

How the data were processed

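Chromatin immunoprecipitation was measured in 2 biological replicates of 1 group, per the labels. The authors deposited 3 lists of 30000 candidate regions, called on each replicate and on their reads together against the same control alignment on assembly ce11, and a list of 218 peaks derived from these by the irreproducible discovery rate, per the deposited records of the files. The deposited signal value is the caller's score on an unstated scale, and the deposited −log10 q-value is its false discovery rate. The caller, the aligner, the threshold and the kind of control were not stated there. The read depth is unknown from these lists.

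Genes came from the Ensembl annotation of WBcel235, release 115, and sequence and gene products from RefSeq's files of that assembly. A member counted as reproducible when the list of 218 held the same start, end and summit. A replicate's value is that of the overlapping listed region with the nearest summit. The nearest snoRNA gene was taken by distance to its annotated body. Motifs were searched by exact letters, on both strands within 100 bp of summits and on the strand of the gene within 100 bp upstream of genes. Shares carry 95% Wilson intervals (SciPy 1.17.1), and a share of 0 carries the limit that 3 counts would give. No p was computed, since regions are not replicates and there is 1 group. The steps were tested on simulated data. Tables and figures were made with Python 3.11.15, pandas 2.3.3, NumPy 2.4.6 and matplotlib 3.10.9.

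All 28 reproducible members are named, the 12 highest with coordinates and values in every list, with the 5 highest other members and the nearest on each side of the limit. The distance limit, the tRNA exclusion, the match to the reproducible list, the replicates, the strand of hosts and the windows for GC content and coding starts were varied, and the motif windows were not. The members, lists and motifs were chosen with earlier results of these data known, and the A box letters and TGTCGGCC after the sequences were seen.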

Additional observations from a re-analysis of the deposited data

How the results depend on the processing

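No paired analysis was possible because the labels give 1 group. Of 51 alternative values, 32 kept their direction and stayed near the value given above. With a limit of 100 bp, 107 regions were members, their median rank was 2580, 22.4% were reproducible and the intronic minus intergenic gap was 6.82 percentage points. With 250 bp the median rank was 4095, and with 1000 bp there were 313 members with a median rank of 9334. Keeping only reproducible peaks in the part of that list above its median signal left 18 members (8.87%) at 5.2% of the snoRNA genes and turned the gap to -1.25. Counting hosts on the strand of the snoRNA alone turned it to -4.79, and the cause was not tested. With each gene extended by 50 bp, 10 reproducible summits were upstream, 17 inside and 1 downstream, by construction of the wider gene. A coding start within 1000 bp was found for 15 reproducible members. In the lists of single replicates, the gap ran from -0.199 to 0.0326, the members from 177 to 212, those among the 218 highest from 21 to 27 (11.9 to 12.7%), the share of snoRNA genes from 6.36 to 8.09%, the median rank from 6765 to 7605 and the difference in median GC from 4.95 to 10.9 points. No region of replicate 1 had a q-value under 0.125 and none of replicate 2 under 0.0102, against 0.00488 with pooled reads. The lists do not give the read depth, so its part in these values was not tested.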

Other observations

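Proteins of the snoRNA particles, of their assembly or of the nucleolus were looked at through the promoters of their genes. Of 11 such genes, 8 (72.7%) had a candidate summit between 1000 bp upstream and 200 bp downstream of an annotated transcript start, against 38.5% of 19985 protein-coding genes. None of the 11 had a reproducible one, which allows a share of up to 27.3%, so the list is too short to be set against the 0.931% of all protein-coding genes. The highest was at nucl-1, the nucleolin homolog, with a pooled signal of 59.5 (rank 1898), 673 bp upstream. It was followed by nola-3, a subunit of the H/ACA particle (signal 53.3, rank 3437), and nol-56, a core protein of the C/D particle (signal 51.6, rank 4095). The nol-56 region is also a member, at the snoRNA gene K07C5.11 in an intron of nol-56. Its summit lay 246 bp from that snoRNA gene and 104 bp from a coding start. The region at fib-1, which encodes fibrillarin, the methyltransferase of the C/D particle, had a signal of 36.3 (rank 17474). No candidate lay in the window of snu-13, garr-1 or ruvb-2.

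Among snoRNA genes in ribosomal protein introns, 4 members stood above the rest of that group: F54E7.10 in rps-12 (rank 329), C16A3.11 in rps-13 (rank 863), K11H12.12 in rpl-15 (rank 905) and Y24D9A.9 in rpl-7A (rank 3359). The summits at F54E7.10 and Y24D9A.9 lay nearer to a coding start (115 and 97 bp) than to the snoRNA gene (195 and 379 bp). The median rank of the 10 members in ribosomal protein introns was 18428, against 7514 for members in introns of other genes.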
